A study of Arabidopsis thaliana with 20 samples.

Results

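The plasma membrane intrinsic proteins (PIPs) are the water channels, or aquaporins, of the plant plasma membrane, and 10 PIP genes of Arabidopsis thaliana were followed here among the 33601 loci of the count tables. They were taken by locus, with no limit on a measured value, and all 10 had at least 10 counts in 1 or more of the 16 diel libraries, as did 21404 loci in all, which were the genes tested. The plants were Col-0 (genotype Columbia-0) seedlings, 2 weeks old, raised at 23 °C on agar plates under a 12 h day and 12 h night, with no transgene, mutation or chemical in any group. PM heat plants were held at 30 °C for 1 h beginning 30 min after dusk (ZT 12.5, hours after lights on), and PM control plants were mock treated at the same time. AM heat plants had the same 1 h at 30 °C beginning 30 min after dawn (ZT 0.5), and AM control plants were mock treated then. Each of these groups had 4 libraries. LL PM heat, LL PM control, LL AM heat and LL AM control plants had the same treatments after a shift to constant light (LL), with 1 library each and therefore no replicate check.

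Aquaporins form tetramers in which each subunit holds its own water pore. The PIP1 and PIP2 subfamilies differ in that PIP2 proteins reach the plasma membrane and conduct water by themselves, while many PIP1 proteins depend on assembly with a PIP2 partner to get there. PIPs carry much of the water that crosses cell membranes in roots and leaves, some pass carbon dioxide or hydrogen peroxide as well, and they are regulated by transcription, phosphorylation, vesicle traffic and degradation.

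To keep the names short, the letter names among the RefSeq synonyms are used. The PIP1 subfamily comprises PIP1A (PIP1;1, AT3G61430), PIP1B (PIP1;2, AT2G45960), PIP1C (PIP1;3, AT1G01620), PIP1D (PIP1;5, AT4G23400) and PIP1E (PIP1;4, AT4G00430). The PIP2 subfamily comprises PIP2A (PIP2;1, AT3G53420), PIP2B (PIP2;2, AT2G37170), PIP2C (PIP2;3, AT2G37180, also RD28), PIP3A (PIP2;7, AT4G35100) and PIP3B (PIP2;8, AT2G16850). In the TAIR10.1 annotation none of the 10 overlaps another annotated gene. PIP2B and PIP2C lie next to each other on chromosome 2, PIP2B on the minus strand from 15613368 to 15615022 and PIP2C on the plus strand from 15617635 to 15619155.

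PIP2B and PIP2C are the members whose reads are hardest to tell apart. Their coding sequences, each 858 bases long, differ at 45 positions, their proteins are 96.8% identical, and the longest identical coding run is 242 bases. Of all 50-base words in the exons, 19.6% of those of PIP2B and 21.7% of those of PIP2C occur also in the other gene, while the other 8 members share no 50-base word with any other place in the genome. The 60 coding bases with the most differences, coding positions 414 to 473, are shown because reads over them can be assigned to 1 gene, at chr2:15614198-15614257 (minus strand) for PIP2B and chr2:15618313-15618372 (plus strand) for PIP2C. Capitals mark the 10 positions that differ.
PIP2B coding: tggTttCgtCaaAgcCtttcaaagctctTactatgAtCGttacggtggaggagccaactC
PIP2C coding: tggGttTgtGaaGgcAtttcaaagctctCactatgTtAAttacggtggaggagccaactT

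The promoters of the genes with the largest heat responses, and that of the neighbour PIP2B, are shown as the 250 bases before the annotated gene start (TAIR10.1), with capitals for any match to 4 motifs that were searched. PIP3A lies at chr4:16708111-16708360 (plus strand), PIP2C at chr2:15617385-15617634 (plus strand) and PIP2B at chr2:15615023-15615272 (minus strand).
PIP3A promoter: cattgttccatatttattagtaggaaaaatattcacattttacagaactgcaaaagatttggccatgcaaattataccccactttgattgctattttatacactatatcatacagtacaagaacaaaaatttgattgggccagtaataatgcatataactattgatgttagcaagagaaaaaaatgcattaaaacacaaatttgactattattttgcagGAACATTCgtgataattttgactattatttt
PIP2C promoter: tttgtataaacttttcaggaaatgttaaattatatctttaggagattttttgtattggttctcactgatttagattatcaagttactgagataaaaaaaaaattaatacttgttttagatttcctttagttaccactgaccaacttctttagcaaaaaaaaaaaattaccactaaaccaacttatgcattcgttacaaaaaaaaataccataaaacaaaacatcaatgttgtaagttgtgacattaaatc
PIP2B promoter: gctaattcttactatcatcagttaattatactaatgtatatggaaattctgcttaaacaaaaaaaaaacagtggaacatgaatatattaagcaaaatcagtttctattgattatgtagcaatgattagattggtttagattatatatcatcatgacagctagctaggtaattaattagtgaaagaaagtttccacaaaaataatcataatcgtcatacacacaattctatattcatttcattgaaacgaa

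The motifs were GAANNTTC (the core of the heat shock element), AAAATATCT (the evening element), CACGTG (the G-box) and ACGTG (the core of the abscisic acid response element, contained in the G-box), each on both strands from 250 bases before to 50 bases after the gene start. GAANNTTC occurred in 1 of the 10 members, at positions -31 to -24 of PIP3A, and in 11.6% of 27443 protein-coding genes. The evening element occurred in 0 of the 10 members and in 2.82% of the genes, the G-box in 0 and 7.68%, and ACGTG in 0 and 26.7%. A match is a run of letters and not a shown binding site. PIP2C, with the largest heat response of the 10 genes, had no match to any of the 4.

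The 16 diel libraries held 14637914 to 38812441 counts and the 4 constant light libraries 8594948 to 19957156. Levels are given as CPM, the counts scaled to library size with trimmed mean of M values (TMM) factors, and as CPM per kb of exon where genes are compared with each other. The heat marker genes HSP70-4, HSP101 and HSFA2 were higher in heat at both times (log2 fold changes of 4.47 to 6.28), and the clock genes CCA1 and TOC1 differed between PM control and AM control by log2 fold changes of -7.31 and 2.82. At AM, libraries 1 and 2 stood apart from libraries 3 and 4 in heat markers. HSP70-4 had 8767, 10033, 3187 and 3434 CPM in AM heat libraries 1 to 4, against 501, 504, 70.8 and 69.2 CPM in AM control. HSP101 had 40.9, 43.0, 8.62 and 8.69 CPM and HSFA2 16.6, 13.2, 1.76 and 2.09 CPM in the AM control libraries, so that controls 1 and 2 were the higher ones for all 3 markers. In PM heat, libraries 1 and 2 were also higher for HSP70-4 (2384, 2540, 1318 and 1284 CPM in libraries 1 to 4) and HSP101 (702, 569, 376 and 333 CPM). HSFA2 did not split this way in PM heat, at 335, 227, 356 and 283 CPM. The tissue is labelled as whole plant but the protocol names aerial tissue. Photosynthesis genes chosen as shoot markers summed to 24560 to 27690 CPM in PM heat and 17820 to 28550 CPM in PM control. At AM the sums were 36450 to 45040 CPM in heat and 36270 to 47700 CPM in control. Among these genes, LHCB2.1 had 11.8 to 25.1 CPM in PM control and 2523 to 4466 CPM in AM control. All 9 root markers had counts. Their summed level was 964 to 1388 CPM in PM heat and 1945 to 3449 CPM in PM control, and 1091 to 1419 CPM in AM heat and 2054 to 2715 CPM in AM control. Nearly all of each sum was PYK10, at 955 to 1368 CPM in PM heat and 1905 to 3381 CPM in PM control. In AM heat PYK10 had 1071 to 1398 CPM and in AM control 1976 to 2646 CPM. At AM, 8 of the 9 were called lower in heat, against 8.36% of all genes. At PM, 3 of the 9 were (COBL9, PYK10 and IRT1), against 10.6%. All 9 fold changes were negative at both times. RHD6, CASP1 and NRT2.1 were not called at PM (edgeR adjusted p = 0.09527, 0.1058 and 0.1663). The hair cell and endodermis markers COBL9, RHD6 and CASP1 averaged 0.557, 0.441 and 6.97 CPM in AM heat and 2.07, 1.43 and 20.8 CPM in AM control, and NRT2.1 had 0 counts in every AM heat library. This shift went with the heat comparisons at both times, its part in the results was not tested, and in bulk tissue fewer cells of a type and less RNA per cell cannot be told apart.

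Heat raised a set of PIP transcripts at both times of day. At PM, 5 of the 10 genes were called higher in heat (edgeR quasi-likelihood test, adjusted p under 0.05 over 21404 genes and a log2 fold change beyond 0.5), against 7.59% of all genes, and 0 were called lower, against 10.6% of all genes. At AM, 5 of the 10 were called higher, against 5.20% of all genes, and 0 lower, against 8.36%. DESeq2 also called 0 members lower at either time, and PIP3B at AM was the 1 gene lower at an unadjusted p under 0.05 in edgeR. PIP1B, PIP2A, PIP2C and PIP3A were called higher at both times, 4 of 10 against 2.40% of all genes. PIP2B was called at PM and PIP1E at AM, but neither difference between the times passed its own test. The median log2 fold change of the 10 members was 0.75 at PM and 0.74 at AM, beside -0.03 and 0.03 over all genes tested. Every fold change was positive except that of PIP3B at both times. The 4 heat libraries lay above the 4 control libraries for 8 of the 10 genes at PM and for 5 of the 10 at AM, against 11.2% and 10.4% of all genes. With libraries 1 and 2 alone, 3 members at PM and 4 at AM were called higher, against 2.23% and 3.57% of all genes. With libraries 3 and 4 alone, 7 were called higher at each time, against 18.5% at PM and 9.20% at AM, and PIP3B lower at both, against 20.5% and 11.0%. Both splits were made after seeing the data.

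**Figure D1:**
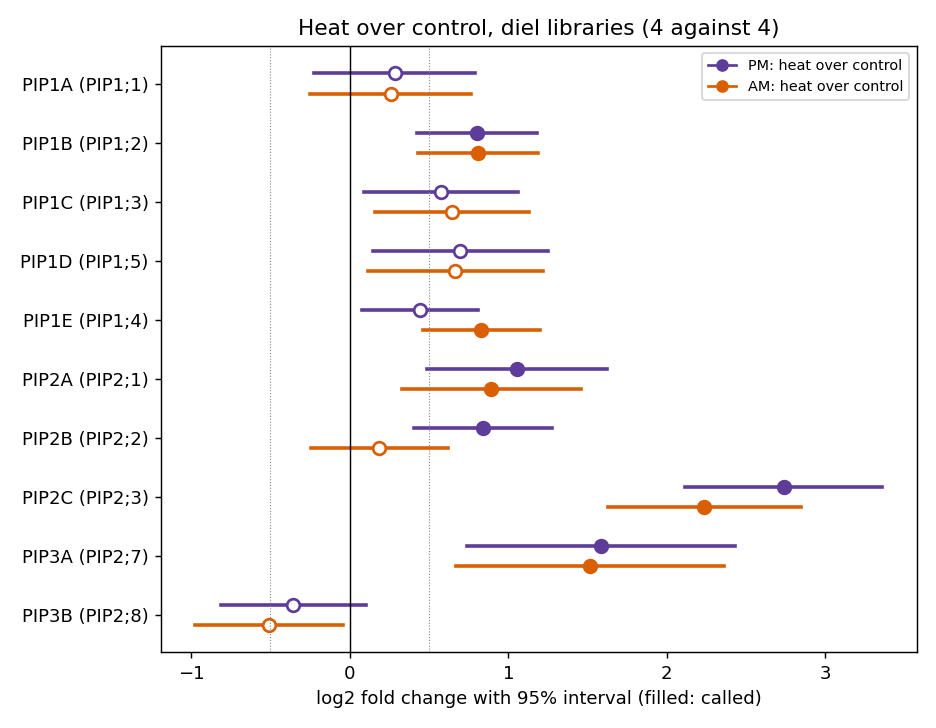
Log2 fold change of heat over control for each PIP gene at PM (purple) and AM (orange), 4 libraries against 4, with the 95% interval from the edgeR fit. Filled points were called, dotted lines mark the fold limit of 0.5, and PIP2C stands farthest right at both times while PIP3B lies left of 0.

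PIP2C, first described as a transcript responsive to desiccation, had the largest response. It had 201, 249, 156 and 153 CPM in PM heat libraries 1 to 4, against 30.3, 43.2, 15.6 and 24.6 CPM in PM control. It had 578, 508, 361 and 320.4 CPM in AM heat, against 111, 96.8, 83.6 and 83.9 CPM in AM control. The groups did not overlap at either time. The log2 fold change was 2.74 ± 0.28 (SE, n = 4 against 4, adjusted p = 1.751e-05), or 6.67-fold, at PM, and 2.24 ± 0.28 (adjusted p = 7.616e-05), or 4.71-fold, at AM. PIP2C was one of the scarcer members in controls (23.3 ± 9.48 CPM per kb in PM control and 76.8 ± 10.6 in AM control, SD, n = 4) and reached 156 ± 37.1 CPM per kb in PM heat and 362 ± 99.4 in AM heat.

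PIP2B, which contributes to water uptake by roots, did not follow its neighbour at AM. It had 258, 326, 203 and 242 CPM in PM heat, against 165, 155, 110.3 and 145 CPM in PM control. It had 347, 239, 241 and 198 CPM in AM heat, against 254, 171, 248 and 228 CPM in AM control. The PM groups were apart and the AM groups overlapped. The log2 fold change was 0.84 ± 0.20 at PM (adjusted p = 0.009106) and 0.19 ± 0.20 at AM (adjusted p = 0.5866). Since part of each gene's reads fits both genes, the share of reads that the counting placed in either or left out is not known, and the values of PIP2B and PIP2C carry that uncertainty.

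PIP3A, an abundant PIP of leaves and roots and the only member with a GAANNTTC match, had the next largest response. It had 1509, 1772, 1628 and 1414 CPM in PM heat, against 722, 835, 228 and 326 CPM in PM control. It had 1857, 1515, 1061 and 788 CPM in AM heat, against 729, 466, 301 and 332 CPM in AM control. Heat and control did not overlap at either time, and at PM the heat libraries were closer together than the controls. The log2 fold change was 1.58 ± 0.39 at PM (adjusted p = 0.01058) and 1.51 ± 0.39 at AM (adjusted p = 0.01551). The AM call was lost when AM control replicate 3 or 4 was left out (log2 fold changes of 1.36 and 1.39, adjusted p = 0.05116 and 0.05146).

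PIP2A, which acts in guard cells during stomatal closure and in rosette water transport, was the most abundant member in the diel AM groups. It had 543, 638, 410.1 and 446 CPM in PM heat, against 293, 339, 136 and 212 CPM in PM control. It had 4460.3, 4168, 2888 and 2633 CPM in AM heat, against 2291, 1919, 1723 and 1679.8 CPM in AM control. Heat was above control in every library at both times, with a log2 fold change of 1.06 ± 0.26 at PM (adjusted p = 0.01099) and 0.89 ± 0.26 at AM (adjusted p = 0.02925). The AM call stood near the threshold. It was lost without AM heat replicate 1 or 2, or without AM control replicate 2, 3 or 4, where the log2 fold change was 0.76, 0.81, 0.90, 0.85 and 0.84 and the adjusted p 0.07761, 0.0816, 0.05714, 0.07564 and 0.08023. Without AM control replicate 3, or without replicate 4, 3 of the 10 members were called higher at AM in place of 5, against 3.82% and 3.87% of all genes.

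PIP1B, a channel for water and carbon dioxide that contributes to rosette water transport, was the most abundant PIP1 gene. It had 1056.5, 1303, 1087 and 1190.1 CPM in PM heat, against 710.4, 782, 524 and 645 CPM in PM control. It had 3068, 2548, 2403 and 2048 CPM in AM heat, against 1809.6, 1349, 1314 and 1275 CPM in AM control. The log2 fold change of 0.80 ± 0.17 at PM (adjusted p = 0.005417) and 0.81 ± 0.17 at AM (adjusted p = 0.005609) was nearly equal at both times, and no heat library fell among the controls.

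PIP1E, which passes hydrogen peroxide and carbon dioxide, was called at AM. It had 156, 190.2, 129 and 134 CPM in PM heat, against 92.8, 109.6, 121 and 125 CPM in PM control. It had 459, 529, 388 and 368 CPM in AM heat, against 271, 282, 222 and 205 CPM in AM control. The groups were apart at both times, narrowly so at PM. The log2 fold change was 0.44 ± 0.17 at PM (adjusted p = 0.07045) and 0.83 ± 0.17 at AM (adjusted p = 0.003987).

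PIP1C and PIP1D missed the threshold at both times in the 4-group fit. PIP1C had 503, 609, 435 and 515 CPM in PM heat, against 373, 422, 265 and 325 CPM in PM control, and 743, 469, 492 and 377 CPM in AM heat, against 465, 301, 291 and 274 CPM in AM control. PIP1D had 185, 204, 205 and 216 CPM in PM heat, against 151, 147, 89.5 and 112 CPM in PM control, and 255, 271, 185 and 168 CPM in AM heat, against 206, 161, 84.7 and 102 CPM in AM control. For both genes the PM groups were apart and the AM groups overlapped through control replicate 1, the highest of its group. The log2 fold change of PIP1C was 0.57 ± 0.22 at PM (adjusted p = 0.07684) and 0.64 ± 0.22 at AM (adjusted p = 0.06224), and that of PIP1D 0.70 ± 0.25 at PM (adjusted p = 0.06024) and 0.67 ± 0.25 at AM (adjusted p = 0.0882). Libraries with the same replicate number deviated together, and with the number as a replicate block both genes were called higher at both times. The blocked log2 fold change of PIP1C was 0.59 at PM (adjusted p = 0.01371) and 0.64 at AM (adjusted p = 0.01107), and that of PIP1D 0.76 at PM (adjusted p = 0.006296) and 0.70 at AM (adjusted p = 0.01132). In that paired fit 7 of the 10 members were called higher at each time, against 11.5% of all genes at PM and 7.66% at AM.

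PIP1A and PIP3B were not called in heat. PIP1A had 266, 285, 185 and 215 CPM in PM heat, against 238, 256, 128 and 159 CPM in PM control, and 915, 673, 684 and 518 CPM in AM heat, against 746, 550.1, 511 and 526 CPM in AM control. Its log2 fold change of 0.28 at PM (95% interval -0.22 to 0.79) and 0.26 at AM (-0.25 to 0.77) has intervals that include the fold changes of PIP1C. PIP3B was the rarest member, with 10.1, 11.6, 10.2 and 9.69 CPM in PM heat, against 10.3, 11.9, 16.1 and 14.9 CPM in PM control, and 9.32, 5.78, 9.71 and 6.63 CPM in AM heat, against 9.53, 8.01, 14.8 and 12.3 CPM in AM control. Its log2 fold change was -0.35 ± 0.21 at PM (adjusted p = 0.2391) and -0.51 ± 0.21 at AM (adjusted p = 0.1228), with overlapping groups.

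**Figure D2:**
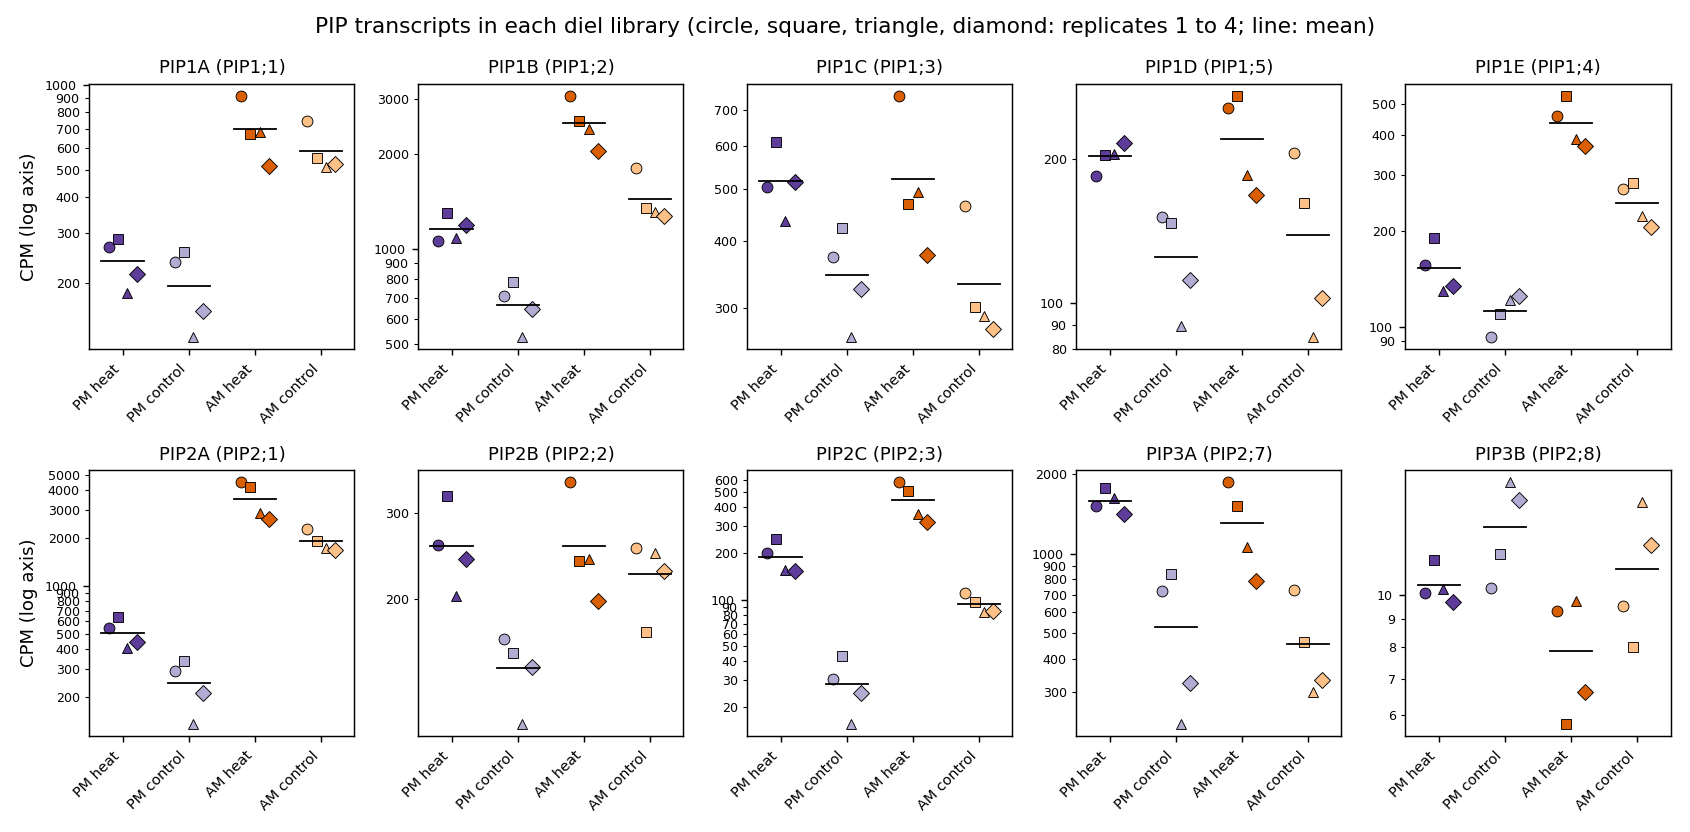
CPM of each PIP gene (log axis, a scale per panel) in the 16 diel libraries, grouped as PM heat, PM control, AM heat and AM control, with marker shapes for replicates 1 to 4 and a line for the group mean. Replicate 1 or 2 (circle, square) often stands highest in its group, and PIP2A shows the widest gap between AM and PM.

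Within groups most members moved together from library to library. Across the 45 pairs of members, the correlation of deviations from the group means in log2 CPM over the 16 libraries had a median of 0.71 and ran from -0.67 to 0.98, where the libraries share depth and the replicate numbering. The highest value was between PIP2A and PIP2C, and the negative values all involved PIP3B. PIP1E had low values with the other members, from 0.17 with PIP2B to 0.38 with PIP2C, apart from -0.11 with PIP3B. The difference of heat minus control between libraries of the same number was positive in all 4 pairs at both times for 7 genes, namely PIP1B, PIP1C, PIP1D, PIP1E, PIP2A, PIP2C and PIP3A, and negative in all 4 at both times for PIP3B. The share of all genes that did so was not computed, so these counts are a description.

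Most PIP transcripts were lower after dusk than after dawn. In PM control against AM control, 6 of the 10 genes were called lower, against 14.9% of all genes, and 0 higher, against 13.8%, with 0 higher also in DESeq2 and at an unadjusted p under 0.05 in edgeR. PIP2A had the largest difference, with a log2 fold change of -2.96 ± 0.28 (adjusted p = 5.24e-07), which is 0.129 of the AM level. PIP2C followed with -1.72 ± 0.28 (adjusted p = 0.0001411), PIP1A with -1.58 ± 0.24 (adjusted p = 8.217e-05), PIP1E with -1.13 ± 0.17 (adjusted p = 7.775e-05) and PIP1B with -1.11 ± 0.17 (adjusted p = 0.0001193). For all of these the 4 PM control libraries lay below the 4 AM control libraries. PIP2B was lower by a log2 fold change of -0.65 ± 0.20 (adjusted p = 0.0195), and lost its call without AM control replicate 1 (-0.59, adjusted p = 0.05592) or PM control replicate 3 (-0.54, adjusted p = 0.05848). PIP1C, PIP1D, PIP3A and PIP3B had log2 fold changes between -0.15 and 0.25 and overlapping groups. This comparison shares its control libraries with the heat comparisons.

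The difference between dusk and dawn was seen in heated plants too. In PM heat against AM heat, 5 genes were called lower, against 19.0% of all genes, and 0 higher, against 17.9%, with the same count of 0 in DESeq2 and at an unadjusted p under 0.05 in edgeR, while libraries 3 and 4 alone called PIP3A higher, against 19.3% of all genes. Those lower were PIP2A (-2.80 ± 0.28, adjusted p = 6.562e-07), PIP1A (-1.55 ± 0.24, adjusted p = 6.8e-05), PIP1E (-1.52 ± 0.17, adjusted p = 2.891e-06), PIP2C (-1.22 ± 0.27, adjusted p = 0.001681) and PIP1B (-1.12 ± 0.17, adjusted p = 7.865e-05), all as log2 fold changes. PIP2A averaged 324 ± 65.4 CPM per kb in PM heat, below the 1068 to 1457 CPM per kb of unheated AM control plants.

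**Figure D3:**
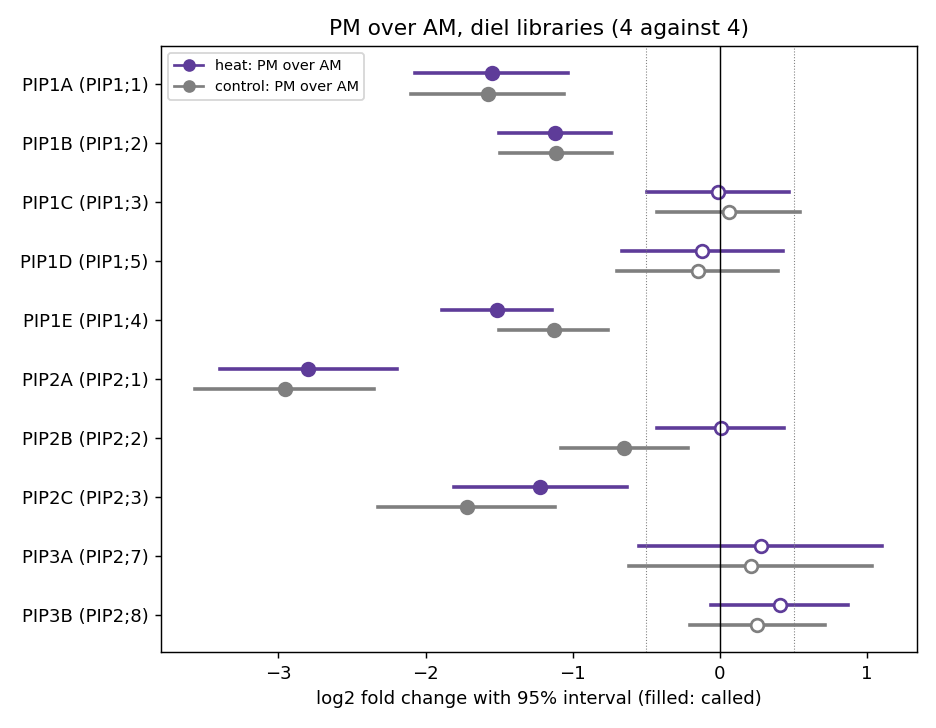
Log2 fold change of PM over AM for each PIP gene in heat (purple) and in control (grey) libraries, 4 against 4, with 95% intervals and filled points for called genes. PIP2A lies near -3 in both, while PIP1C, PIP1D, PIP3A and PIP3B have intervals that cross 0.

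No member's heat response was shown to differ between PM and AM. The interaction, that is the PM heat response minus the AM heat response, was called for 0 of the 10 members (edgeR adjusted p under 0.05), against 0.234% of all genes higher and 0.164% lower. DESeq2 likewise called 0, and 1 member, PIP2B, had an unadjusted p under 0.05 in edgeR. PIP2B had the largest positive interaction at 0.65 on the log2 scale (95% interval 0.04 to 1.27, adjusted p = 0.3514), and PIP1E the largest negative at -0.39 (-0.90 to 0.13, adjusted p = 0.557). With replicates 3 and 4 alone, a choice made after seeing the data, both were called (0.89, adjusted p = 0.03978, and -0.75, adjusted p = 0.02223), against 5.22% of all genes higher and 5.51% lower in that fit, and with replicates 1 and 2 alone 0 members were, against 0.0898% of all genes. For PIP2C the interaction was 0.50, with an interval from -0.32 to 1.32.

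The order of the members by level per exon length changed with the time of day. In PM heat, PIP3A was highest (986 ± 96.3 CPM per kb, SD, n = 4), then PIP1B (726 ± 70.0), PIP1C (333 ± 46.2) and PIP2A (324 ± 65.4). In PM control, PIP1B was highest (417 ± 68.8), then PIP3A (329 ± 185), PIP1C (224 ± 43.3) and PIP2A (156 ± 57.1). In AM heat, PIP2A was highest (2249 ± 579), then PIP1B (1576 ± 265), PIP3A (814 ± 296) and PIP1A (448 ± 105), and in AM control PIP2A (1209.9 ± 177), PIP1B (899.8 ± 157), PIP1A (375 ± 70.3) and PIP3A (285 ± 122). Several neighbours in these orders had overlapping ranges, among them PIP1C and PIP2A in PM heat, PIP1B and PIP3A in PM control, and PIP2A and PIP1B in AM heat and in AM control. PIP3B was last in each of these 4 groups, at 5.31 to 8.99 CPM per kb on average.

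The summed level of the 10 genes gives the size of the pool. It averaged 4815 ± 525 CPM in PM heat and 2402 ± 665 CPM in PM control, and 9939 ± 2336 CPM in AM heat and 5427 ± 1010 CPM in AM control (SD, n = 4 each). The ratio of means was 2.00 at PM and 1.83 at AM. PIP2 genes summed to 2547 ± 317 CPM in PM heat and 958 ± 413 in PM control, a ratio of 2.66, and to 5549 ± 1552 CPM in AM heat and 2691 ± 491 in AM control, a ratio of 2.06. PIP1 genes summed to 2268 ± 236 CPM in PM heat and 1444 ± 255 in PM control, a ratio of 1.57, and to 4390.2 ± 816 CPM in AM heat and 2737 ± 520 in AM control, a ratio of 1.60. The mean pool of PM heat plants lay below that of AM control plants by less than the SD of the AM control libraries, but PIP3A made up the largest part of the PM heat pool and PIP2A of the AM control pool.

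**Figure D4:**
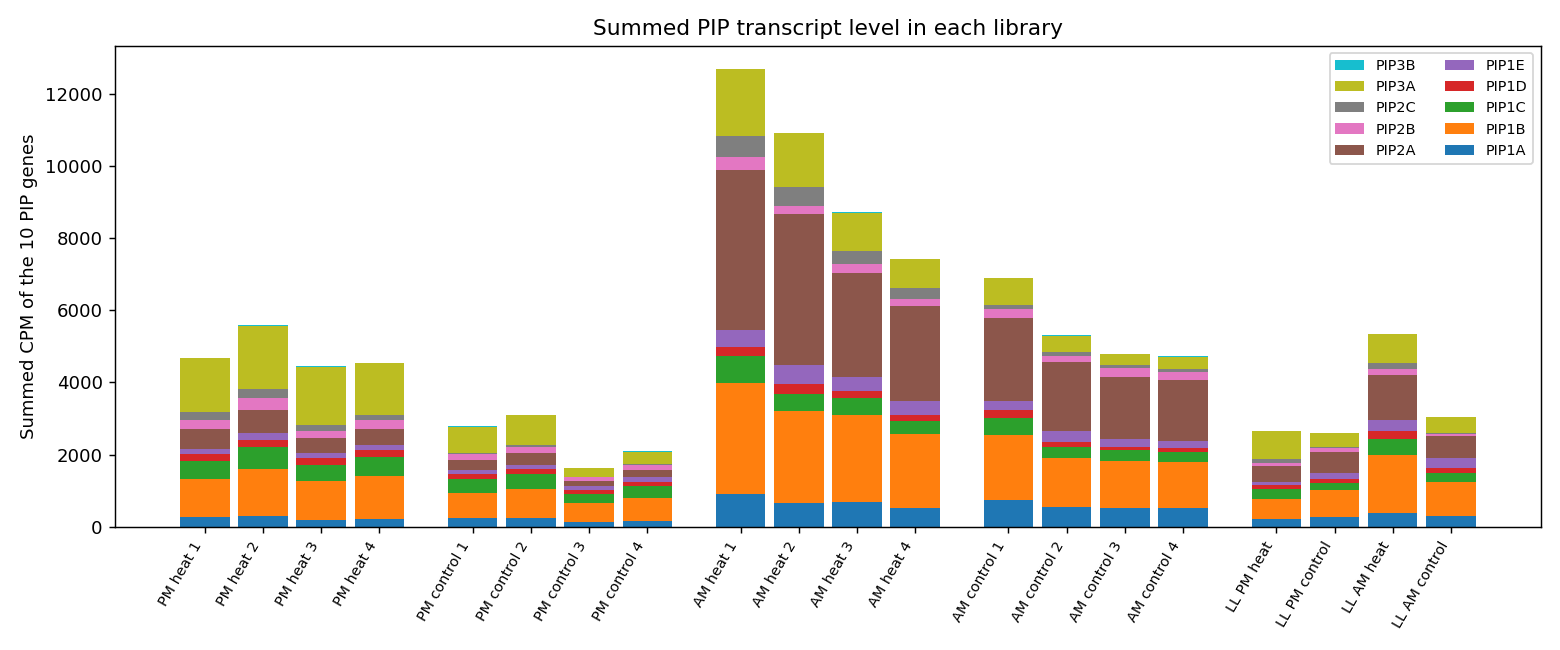
Summed CPM of the 10 PIP genes in each of the 20 libraries, as bars that start at 0 and are divided by gene. AM heat libraries stand highest, at 7424 to 12691 CPM, and the large PIP2A share of the AM diel libraries is small at PM and intermediate in constant light.

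In constant light, most members were higher in the heated AM library, as a description of 1 library against 1. In LL AM heat against LL AM control, 7 of the 10 genes had a log2 difference over 0.5, against 15.4% of 20052 genes, and 0 under -0.5, against 15.2%. PIP2C had 179 CPM in LL AM heat and 24.7 CPM in LL AM control, a log2 difference of 2.85. PIP2B had 148 CPM in LL AM heat and 48.2 CPM in LL AM control, a difference of 1.61, and PIP2A had 1243.5 CPM in LL AM heat and 628 CPM in LL AM control, a difference of 0.99. PIP1A, PIP1E and PIP3B had differences of 0.30, 0.29 and -0.03.

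The LL PM libraries gave a mixed picture. In LL PM heat against LL PM control, 2 genes had a log2 difference over 0.5, against 23.4% of genes, and 1 under -0.5, against 30.2%. PIP3A had 791 CPM in LL PM heat and 381 CPM in LL PM control (a log2 difference of 1.05), and PIP2C had 98.0 CPM in LL PM heat and 47.7 CPM in LL PM control (1.04). PIP1E had 95.5 CPM in LL PM heat and 179.8 CPM in LL PM control (-0.91), and the other 7 genes lay between -0.40 and 0.38. The LL PM control library held 395 CPM of HSP70-4, 71.9 CPM of HSP101 and 49.0 CPM of HSFA2, against 90.2, 16.1 and 6.60 CPM in LL AM control. LL PM heat was the shallowest library. The root markers summed to 659 CPM in LL PM heat and 1942 CPM in LL PM control. At AM the sums were 2071 CPM in LL AM heat and 954 CPM in LL AM control. Nearly all of each sum was PYK10, at 653 CPM in LL PM heat, 1919 in LL PM control, 2052 in LL AM heat and 945 in LL AM control. The part of these in the differences was not tested.

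**Figure D5:**
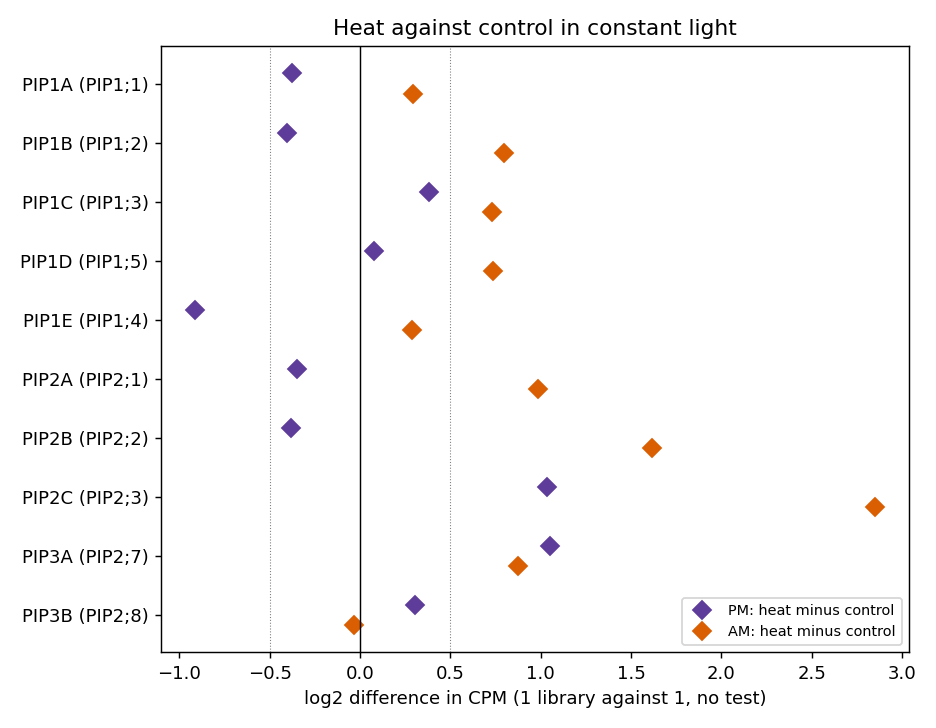
Log2 difference in CPM between heat and control in constant light for each PIP gene at PM (purple) and AM (orange), 1 library against 1 and without a test. PIP2C and PIP3A are past 0.5 at both times, and 5 genes have AM values above 0 and PM values below it.

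The PM to AM difference of PIP2A was small in constant light. It had 562 CPM in LL PM control and 628 CPM in LL AM control, a log2 difference of -0.16, beside the -2.96 of the diel libraries. In LL PM control against LL AM control, 2 genes were over 0.5 (PIP2B 1.20 and PIP2C 0.95), against 19.1% of genes, and 1 was under -0.5 (PIP1E -0.57), against 17.8%. The PIP2B and PIP2C differences thus had the opposite sign to the diel ones, with 1 library each and the raised heat markers of LL PM control beside them. CCA1 had 40.9 CPM in LL PM control and 344 CPM in LL AM control. LHY had 34.4 and 225 CPM and TOC1 147 and 38.1 CPM in these libraries, so these clock genes still differed. GI did not, at 41.0 CPM in LL PM control and 37.4 CPM in LL AM control, beside a diel log2 fold change of -4.70.

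Other aquaporins differed from list to list. In heat, 7.59% of all genes were called higher and 10.6% lower at PM, and 5.20% and 8.36% at AM. Of the 3 PIP genes outside the 10, PIP2;6 (AT2G39010), which contributes to rosette water transport, was called higher at PM (1.10 ± 0.20, adjusted p = 0.001726). Of the 8 tonoplast intrinsic proteins tested, the water channels of the vacuole membrane, 4 were called higher and 1 lower at PM, and 1 higher and 1 lower at AM. Their median log2 fold change was 1.10 at PM, beside 0.75 for the 10 members, and 0.55 at AM, beside 0.74. Both medians include TIP3;1 and TIP3;2, which were near the floor and had log2 fold changes of 1.71 and 1.62 at PM. The order of these medians is therefore not read as a result. TIP1;2 (AT3G26520, 1.15 ± 0.30, adjusted p = 0.01513) and TIP2;1 (AT3G16240, 1.06 ± 0.34, adjusted p = 0.03718) were called higher at PM alone. TIP3;1 (AT1G73190) was too, near the floor at 0.528 to 1.20 CPM in PM heat. TIP1;1 (AT2G36830) was higher at both times (1.41 ± 0.24 at PM, adjusted p = 0.001343, and 1.54 ± 0.24 at AM, adjusted p = 0.0006376), and TIP4;1 (AT2G25810), a root isoform, was lower at both (-1.31 ± 0.36, adjusted p = 0.01829, and -2.04 ± 0.37, adjusted p = 0.001933). Of the 8 NOD26-like intrinsic proteins tested, which carry small solutes such as boric acid, 2 at PM and 3 at AM were called lower, among them the boric acid channel NIP5;1 (AT4G10380, -1.09 at PM and -1.11 at AM). The small basic intrinsic proteins of the endoplasmic reticulum had 2 of 3 genes lower at both times. These lists fell beside the lower root markers, and their part was not tested.

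Of 9 genes that act on PIP proteins or are relatives of such genes, 2 were called higher and 1 lower at PM, against 7.59% and 10.6% of all genes. At AM 1 was called higher, against 5.20%, and 0 lower, against 8.36%. With so few genes, these counts are not read as a result about the list. TSPO (AT2G47770), which directs PIP3A to degradation, was higher at PM (1.44 ± 0.30, adjusted p = 0.004432). Its level was near the floor, at 1.65 to 3.28 CPM in PM heat and 0.485 to 1.14 CPM in PM control. OST1 (AT4G33950), a kinase that phosphorylates PIP2A, was also higher at PM (0.53 ± 0.14, adjusted p = 0.01581). The receptor kinase SIRK1 (AT5G10020), which acts on PIP2 proteins, was lower at PM (-0.62 ± 0.13, adjusted p = 0.004666). At AM the ubiquitin ligase RMA2 (AT4G28270), related to a ligase that retains PIP2 proteins in the endoplasmic reticulum, was higher (0.70 ± 0.22, adjusted p = 0.04079). The syntaxins SYP121 and SYP61, which carry PIPs to the plasma membrane, were not called at either time.

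The genes outside the family whose pattern over the 16 diel libraries was most like the mean of the 10 members, among 14806 genes averaging 5 CPM or more, were MGT10 (AT5G22830, a magnesium transporter, Pearson r = 0.97), CYP71B12 (AT5G25130, a cytochrome P450, 0.97), FD1 (AT1G10960, a ferredoxin, 0.97), AT1G73750 (0.96) and AT5G39080 (0.96). The 16 points fall into 4 groups and share scaling and replicate numbering, so r mostly follows the group means. FD1 averaged 649 CPM in PM heat and 184 CPM in PM control, and 1835 CPM in AM heat and 728 CPM in AM control. Among the members r with the mean ran from -0.70 for PIP3B to 0.98 for PIP1B.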

How the data were processed

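RNA-Seq read counts were analysed for 20 libraries of Col-0 seedlings, 16 diel (4 per group) and 4 in constant light. The authors prepared directional poly(A) libraries, aligned reads to TAIR10 with TopHat2 2.1.0 and counted them per locus with HTSeq 0.6.0 on the reverse strand, and the deposited values are raw counts for 33601 loci. Whether reads that fit several places were counted is not given in the sources used here.

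Genes that reached 10 counts in any diel library were fitted with edgeR 4.0.16 in R 4.3.3 (quasi-likelihood test, TMM, 4 groups, 16 libraries, common biological coefficient of variation 0.261). Benjamini-Hochberg adjustment ran over 21404 genes. A gene was called at an adjusted p under 0.05 and an absolute log2 fold change over 0.5, the interaction at the adjusted p alone. The SE is the fold change over the square root of F, and 95% intervals use 12 degrees of freedom. The quasi-likelihood test stands in place of the DESeq2 test of the study, which was run as an alternative (DESeq2 1.42.0). Log2 CPM used a prior count of 2, and TMM factors were 0.763 to 1.27.

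Libraries with the same replicate number deviated together (24 pairs, correlation 0.11 to 0.79, mean 0.50, over 14816 genes), so a fit with a replicate block was set beside the results it changed. The 72 pairs with different numbers had a mean of -0.17 and ran from -0.73 to 0.71, so some of them deviated together too. Deviations were taken from group means, which ties the means of the pair types to each other. The labels give replicates without saying that they came from separate plantings, so p-values measure the spread between these libraries.

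All 10 members and the genes of the other aquaporin, regulator and marker lists were named by fixed lists, other genes by the highest correlation with the members' mean. The members and lists were chosen with earlier results of these data known. Gene models and sequences came from RefSeq TAIR10.1, and promoter windows were read from that genome and not from a promoter table. The scripts were tested on simulated data. Alternatives were RLE and upper-quartile scaling, other filters, no fold limit, each time of day alone, and each library left out.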

Additional observations from a re-analysis of the deposited data

Results flagged for a closer look

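PIP1B (PIP1;2) in AM control replicate 1, at 1809.6 CPM, stood apart from the other 3 AM control libraries, which held 1275 to 1349 CPM. In log2 CPM, its gap to the nearest library was 0.84 of the range of the group, above Dixon's critical value for 4 libraries. It was the 1 such case among 44 groups of 4 examined (each member in log2 CPM and the sum of the members in CPM, in each diel group), and chance alone flags about 1 in 20. AM control replicate 1 was also the highest of its group for PIP1A, PIP1C, PIP1D, PIP2A, PIP2B, PIP2C and PIP3A. AM control replicates 1 and 2 also had more heat marker transcript than replicates 3 and 4 (HSP70-4 at 501 and 504 CPM, and at 70.8 and 69.2 CPM), and the part of this in the PIP values was not tested.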

How the results depend on the processing

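RLE or upper-quartile scaling, either filter on low counts, and dropping the fold limit left the count of members called in each comparison as it was, and gave each member in the heat comparisons the same direction and the same side of the threshold. DESeq2 called 7 members higher at PM and 6 at AM in heat, against 9.28% and 5.93% of all genes, adding PIP1C at both times (log2 fold changes of 0.60 at PM and 0.65 at AM) and PIP1D at PM (0.72), and the fit of PM libraries alone added PIP1D (0.68). The replicate block added PIP1C and PIP1D at both times and changed no other call of a member. With 1 library left out, 3 to 7 members were called in AM heat against AM control, against 9.43% to 12.6% of all genes in either direction. In PM heat against PM control 5 to 7 were, against 11.5% to 24.3%. In PM control against AM control 5 to 6 were, against 25.8% to 29.4%. In PM heat against AM heat 5 were, against 34.2% to 35.4%. The interaction was called for 0, against 0.266% to 1.18%. With replicates 1 and 2 alone, chosen after seeing the data, 3 members were called at PM, against 3.36% of all genes in either direction, where PIP1B, PIP2B and PIP3A lost their calls (adjusted p = 0.104, 0.08246 and 0.05111) and PIP1E gained one. At AM 4 were called, against 6.35%, PIP1B having lost its call (0.83, adjusted p = 0.05584), and PIP2B lost that in PM control against AM control (-0.41, adjusted p = 0.2272). With replicates 3 and 4 alone, 8 members were called at PM and 8 at AM, against 39.0% and 20.2% of all genes, including PIP3B as lower (-0.66 at PM and -0.74 at AM). The interaction was called for 2, against 10.7%, PIP3A was called higher in PM heat against AM heat, and PIP2B reversed at AM (-0.11, adjusted p = 0.6656). The causes were not tested.

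Over all genes, upper-quartile scaling moved the split of heat calls to 982 higher and 3238 lower at PM and 780 higher and 2189 lower at AM, against 1624 and 2276 at PM and 1114 and 1790 at AM with TMM. PM libraries fitted alone gave 1106 higher and 1424 lower, and the replicate block 2461 and 3210 at PM and 1640 and 2707 at AM. The interaction was called for 50 genes higher and 35 lower in the 4-group edgeR fit, 308 and 256 with DESeq2, and 339 and 349 with the replicate block. Depth limits PIP3B most, at 3.91 to 10.9 CPM per kb, and constant light values rest on 1 library each.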
